A study of Mus musculus with 7 samples.

Results

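The genes described here are 40 effector genes that type I interferon induces, chosen by name; 39 of them, out of 19505 named genes on the array, had a named probe set, and Ifi44 had none. Each was measured by 1 probe set. The labels give the RNA as that of type 1 conventional dendritic cells (cDC1), the dendritic cells that cross-present antigen to CD8 T cells, sorted from spleens of C57BL/6 mice bearing B16-OVA, a mouse melanoma line that expresses ovalbumin; marker genes on the arrays WT 1 and WT 2 went against that label, as described before the comparisons. In the 4 KO arrays a Cre recombinase under the CD11c promoter acts on a floxed Opa1 gene, whose product fuses the inner mitochondrial membrane; 3 WT arrays are the comparison, and they too come from tumor-bearing mice. CD11c is also active in other dendritic cells and in macrophages, so the deletion is not limited to cDC1. The animals' ages, whether WT mice carried Cre or floxed alleles, and whether an array holds 1 mouse or a pool are not given in the sources used here, so p-values measure the spread between arrays, which may be in part technical.

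Type I interferons bind the receptor IFNAR, whose kinases act on signalling factors that include STAT2. With IRF9, STAT2 is part of the complex ISGF3, which binds a short promoter motif, the interferon-stimulated response element, and switches on a shared set of genes. Their products block viral entry, translation and replication, tag proteins with ISG15, and feed back on the pathway itself. Dendritic cells use this response in cross-priming, and a part of it runs at a low level without infection.

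Several members hold the response element close to their start, and the stretches printed next show where it lies in some of them. They do not include Rtp4, Ifi27 and Ifit2, the members with the largest KO minus WT differences. Of 29 measured members with a RefSeq promoter window (250 bases before to 50 bases after an annotated start, build GRCm38.p6), 12 held GAAA, any 2 bases and GAAA again on either strand (TTTC, any 2 bases and TTTC on the other), or 41.4%, against 3.99% of 27025 genes with such a window. In 6 members, Isg15, Ifit1, Ifit3, Oas1a, Bst2 and Ifitm3, 1 window held at least 2 matches, as did 0.266% of all genes. The 170 bases that precede the start are given for 8 genes, 5′ to 3′ on the gene's own strand, with matches in capitals; adjoining capitals in Isg15, Oas1a and Bst2 are overlapping matches.
Isg15 (ubiquitin-like modifier), chr4:156200819-156200988, minus strand: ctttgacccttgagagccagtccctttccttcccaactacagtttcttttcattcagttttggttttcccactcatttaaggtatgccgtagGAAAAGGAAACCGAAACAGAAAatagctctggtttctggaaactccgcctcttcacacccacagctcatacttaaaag
Ifit1 (binds foreign RNA caps), chr19:34640719-34640888, plus strand: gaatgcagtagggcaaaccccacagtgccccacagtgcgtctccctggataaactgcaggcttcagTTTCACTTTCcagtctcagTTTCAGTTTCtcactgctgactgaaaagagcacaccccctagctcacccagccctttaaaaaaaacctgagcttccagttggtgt
Ifit3 (partner of Ifit1), chr19:34583359-34583528, plus strand: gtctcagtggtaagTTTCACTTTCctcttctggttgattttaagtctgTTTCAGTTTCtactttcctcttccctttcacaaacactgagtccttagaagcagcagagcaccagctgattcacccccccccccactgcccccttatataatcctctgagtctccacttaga
Oas1a (oligoadenylate synthetase), chr5:120907526-120907695, minus strand: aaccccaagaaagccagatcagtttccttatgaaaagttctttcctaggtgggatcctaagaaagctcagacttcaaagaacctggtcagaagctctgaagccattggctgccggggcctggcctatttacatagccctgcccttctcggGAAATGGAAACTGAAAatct
Oas3 (oligoadenylate synthetase), chr5:120777660-120777829, minus strand: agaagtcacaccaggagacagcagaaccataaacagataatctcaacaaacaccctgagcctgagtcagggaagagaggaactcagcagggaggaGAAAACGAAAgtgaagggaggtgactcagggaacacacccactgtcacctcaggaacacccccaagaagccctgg
Bst2 (tetherin), chr8:71537473-71537642, minus strand: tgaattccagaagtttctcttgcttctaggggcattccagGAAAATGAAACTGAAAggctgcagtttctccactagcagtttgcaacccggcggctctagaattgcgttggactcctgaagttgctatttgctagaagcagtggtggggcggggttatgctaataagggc
Rsad2 (viperin), chr12:26456453-26456622, minus strand: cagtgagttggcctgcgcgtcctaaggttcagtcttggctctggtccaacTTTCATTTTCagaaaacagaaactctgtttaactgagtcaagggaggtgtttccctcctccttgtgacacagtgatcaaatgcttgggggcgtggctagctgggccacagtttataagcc
Cmpk2 (nucleotide kinase, next to Rsad2), chr12:26469045-26469214, plus strand: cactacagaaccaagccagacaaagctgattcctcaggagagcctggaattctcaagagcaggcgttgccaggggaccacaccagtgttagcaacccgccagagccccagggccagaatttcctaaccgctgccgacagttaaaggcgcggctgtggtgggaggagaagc

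Isg15 holds 3 overlapping matches from base -78 to base -57, where -1 is the base before the start. Oas1a has its pair at -20 to -5 and Ifit1 has matches starting at -104 and -85. Cmpk2 is shown because it had no match in its window. The window is short, and a match or its absence is a description of these letters only.

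**Figure D1:**
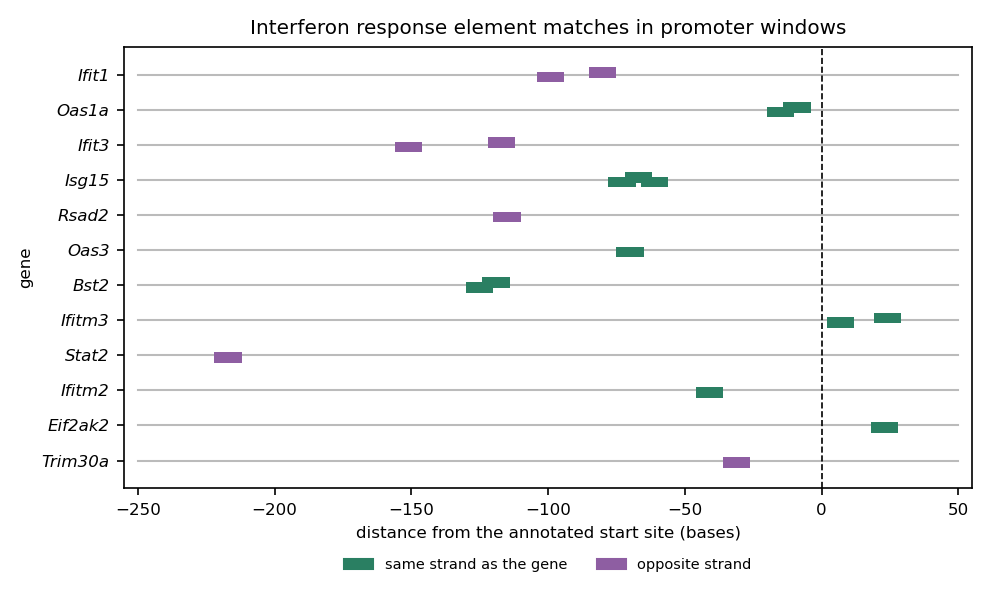
Position of response element matches (boxes) in the promoter window of the first listed start site of 12 members, in bases from the start site (dashed line); colour gives the strand. Genes run from the lowest KO minus WT difference at the top (Ifit1, -1.68) to the highest at the bottom (Trim30a, 0.21), and the matches of Isg15, Oas1a and Bst2 overlap.

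The arrays labelled WT 1 and WT 2 stood apart from the other 5 before any comparison. Over all named genes the correlation of WT 1 and WT 2 was 0.982. Pairs of either with 1 of the other 5 arrays gave 0.924 to 0.954, and pairs of those 5 gave 0.988 to 0.993. All 14 listed melanocyte lineage markers had a lower mean in KO; their mean level was 7.30 to 8.01 on the KO arrays, against 11.58, 11.93 and 9.01 on WT 1 to 3. The cDC1 markers averaged 12.06 to 12.14 on the KO arrays, against 11.26, 9.47 and 12.08 on WT 1 to 3, so the labelled cell type was marked on KO arrays and on WT 3, less on WT 1 and least on WT 2. Cd8a read 11.95 to 12.12 on the KO arrays, against 7.89, 6.96 and 12.11 on WT 1 to 3. Xcr1 read 12.70 to 12.79 on the KO arrays, against 12.12, 7.97 and 12.76 on WT 1 to 3. Clec9a read 12.03 to 12.11 on the KO arrays, against 10.46, 7.29 and 12.10 on WT 1 to 3. All titles give spleen, while the protocol text shared by the arrays names tumor-derived cells as well, and which of these WT 1 and WT 2 hold was not tested. Opa1 itself read 7.70, 7.10, 6.85 and 8.24 on KO 1 to 4, against 8.14, 8.80 and 9.15 on WT 1 to 3, and its difference of -1.22 did not pass (limma, adjusted p = 0.223); it was -1.67 against WT 3 alone. Differences are therefore given with all arrays and against WT 3 alone.

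Set against all 3 WT arrays, 35 of the 39 effector genes had a lower mean in KO, where 40.1% of all genes did. Their median difference (KO minus WT, log2) was -0.81, against 0.06 over all genes. The differences ran from -2.64 for Rtp4, whose KO values lay under the median of the negative control probe sets so that its size and rank are not exact, to 0.21 for Trim30a, and 16 members were at -1 or lower, as were 3.61% of all genes. No gene of the table, and so no member, passed an adjusted p of 0.05 (limma, Benjamini-Hochberg over all genes; 0% called in either direction), and the smallest adjusted p of a member was 0.223. At an unadjusted p under 0.05, 23 members were lower in KO (10.6% of all genes were) and 0 higher (8.98%). In 15 members every KO value lay below every WT value, which held for 5.92% of all genes, and in 0 members did every KO value lie above (7.85%). The 15 were the 3 IFIT genes, Oas1a, Oasl1, Oasl2, Isg15, Usp18, Herc6, Cmpk2, Isg20, Parp9, Ifi27, Ifi27l2a and Rtp4. In Ifit1, Oasl2, Usp18, Herc6, Isg20 and Parp9 the highest KO value lay close under WT 3, so these separations were narrow. An exact permutation test of a single gene on 4 and 3 arrays cannot give a two-sided p under 0.0571.

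The size of these differences rested on WT 1 and WT 2. Against WT 3 alone, with that array assumed to vary like the KO arrays, 32 of 39 members were lower in KO (44.7% of all genes), but the median difference was -0.11, against 0.02 over all genes, and the lowest was -0.86. In that fit 0 members passed (0% of genes) and 5 had an unadjusted p under 0.05, all lower in KO: Ifit2, Ifit3, Isg15, Ifi27 and Ifi27l2a (3.05% of genes were lower at that level and 2.87% higher). In 16 members all 4 KO arrays lay below WT 3, where 18.1% of all genes did so, and in 2, Adar and Ifitm1, all lay above it (24.2%). A difference of -1 or lower was seen in 0 members (0.308% of genes). With WT 3 left out instead, 26 members were called lower in KO and 0 higher (limma, adjusted p under 0.05), where 13.8% of all genes were called lower and 11.4% higher, and the median difference was -1.19. The members not called in that fit were Irf9, Mx1, Mx2, Samhd1, Eif2ak2, Adar, Ifitm2, Parp14, Dtx3l, Ifi35, Trim30a, Sp100 and Tor3a. In 29 members both WT 1 and WT 2 then lay above every KO array (20.6% of genes). Leaving out WT 1 gave 15 members lower at an unadjusted p under 0.05 (5.74% of genes) and a median of -0.68, and leaving out WT 2 gave 17 (5.1%) and -0.49; 0 members passed the adjusted threshold in either. WT 3 was the lowest WT array in 30 of 39 members, or 76.9%, against 37.5% of all genes. The levels are of bulk RNA, so a different share of cells of some type and a different RNA amount per cell cannot be told apart.

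**Figure D2:**
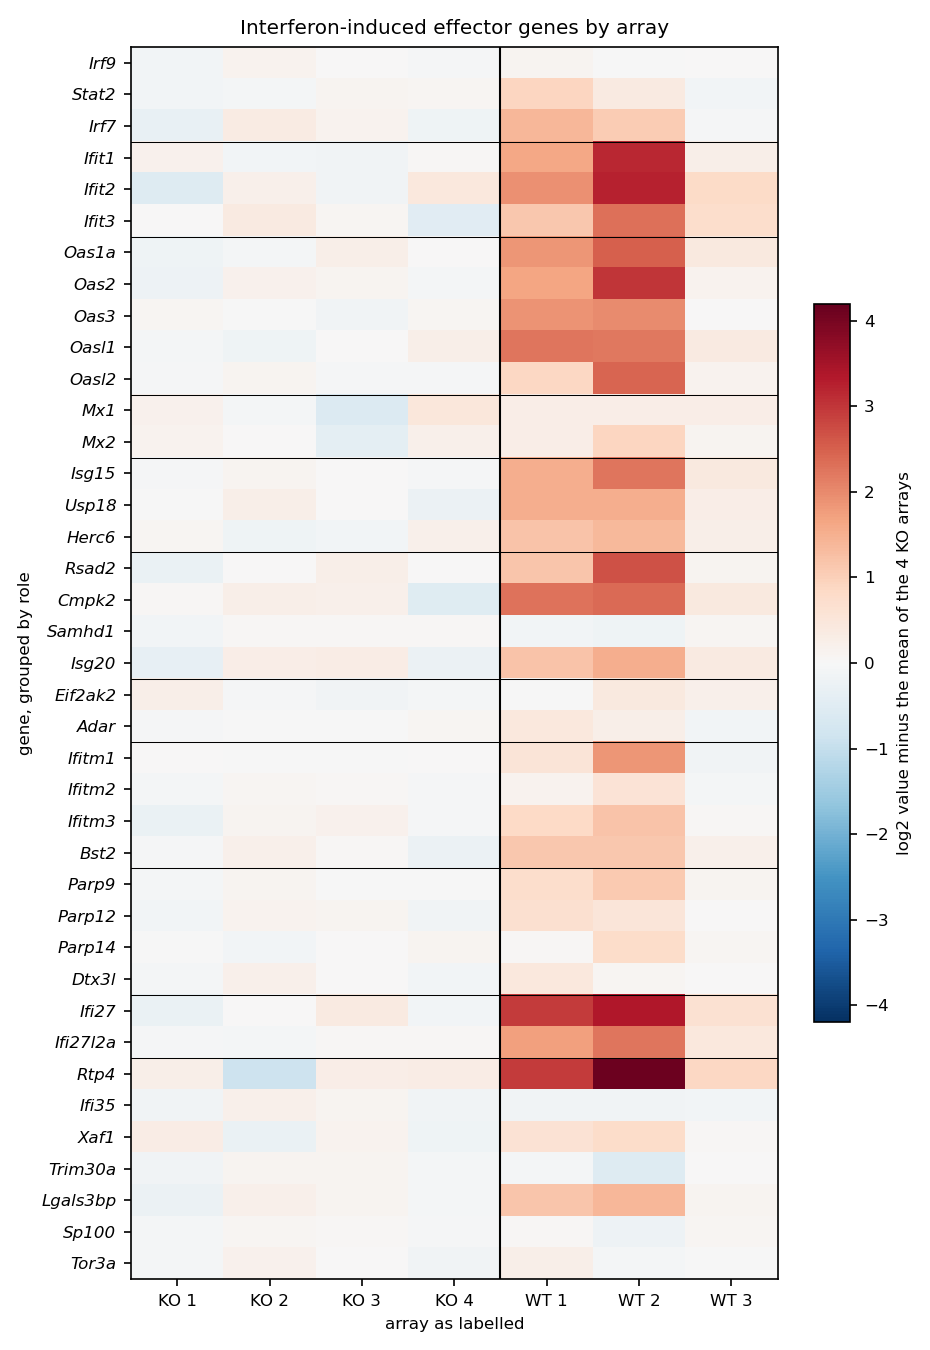
Log2 value of 39 effector genes on each array minus the mean of that gene over the 4 KO arrays; rows are grouped by role, and red is above the KO mean. WT 1 and WT 2 carry most of the red, up to 4.12 for Rtp4 on WT 2, while WT 3 reaches 0.86; Rtp4 is near background on the KO arrays, so these sizes are not exact.

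Several marker lists also set WT 1, WT 2 or both apart from the KO arrays, above or below them. The mean of the 39 effector genes, relative to its KO mean, was -0.07, 0.05, 0.04 and -0.02 on KO 1 to 4, against 1.01, 1.38 and 0.19 on WT 1 to 3. For the melanocyte list the corresponding values were 0.30, 0.13, -0.03 and -0.40 on KO 1 to 4, against 3.88, 4.23 and 1.31 on WT 1 to 3. WT 3 thus stood above the KO mean on both lists, by less than the other WT arrays. Monocyte and macrophage markers, 10 of 11 lower in KO, averaged 8.55 to 9.05 on the KO arrays, against 9.03, 10.53 and 9.27 on WT 1 to 3. WT 1 thus lay inside the KO range, and WT 2 and WT 3 above it. On WT 1 these markers did not move together, with Csf1r and Adgre1 below every KO array and Mertk above them. Markers of mature dendritic cells, 8 of 9 lower in KO, averaged 9.70 to 10.49 on the KO arrays, against 11.13, 10.94 and 10.62 on WT 1 to 3. Within that list, Cd40 and Cd80 lay inside the KO range on WT 1 and WT 2, and Cd86 lay below it on both. Plasmacytoid dendritic cells, which hold much IRF7 and BST2 at rest, had 2 of 9 markers lower in KO. That list averaged 9.23 to 9.42 on the KO arrays, against 8.51, 8.47 and 9.62 on WT 1 to 3, so WT 1 and WT 2 lay below the KO arrays and WT 3 above them. The part of these cell types in the interferon gene differences was not tested.

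**Figure D3:**
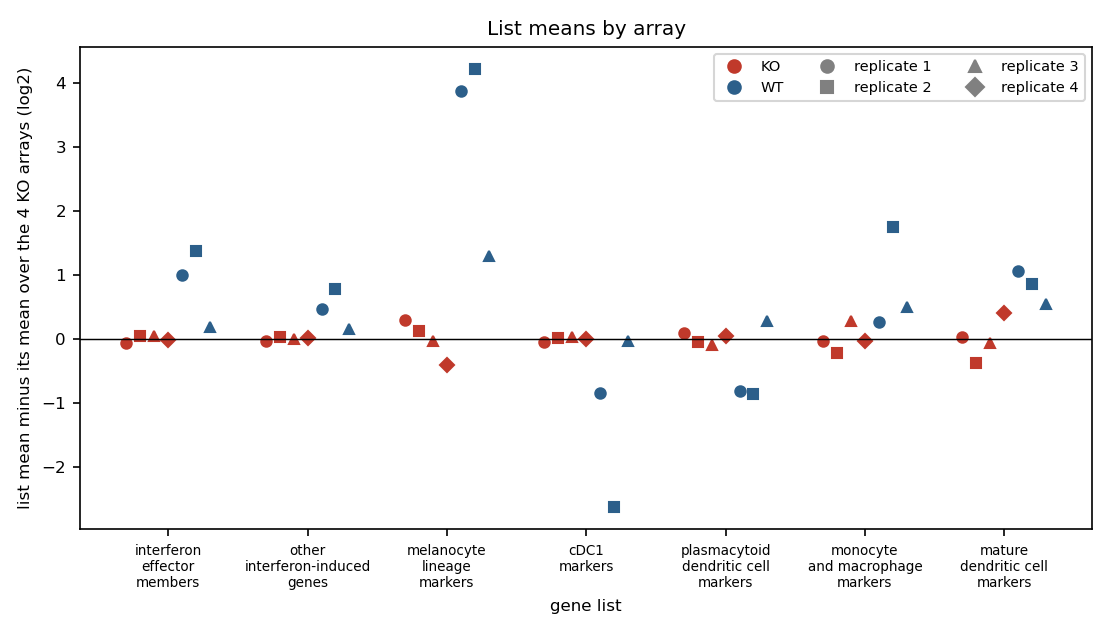
Mean log2 value of 7 gene lists on each array, minus the mean over the 4 KO arrays; colour gives the group and shape the replicate number. On WT 1 and WT 2 the effector genes stand 1.01 and 1.38 above the KO mean and the melanocyte markers 3.88 and 4.23 above it, while the cDC1 markers are at -0.84 and -2.64.

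The 3 signalling factors differed from one another. Irf7, the transcription factor that amplifies interferon production, read 10.66, 11.30, 11.10 and 10.80 on KO 1 to 4, against 12.36, 12.03 and 10.92 on WT 1 to 3. The difference was -0.81 ± 0.33 (SE; limma, adjusted p = 0.245), and it was 0.04 against WT 3 alone, which lay inside the KO range. Stat2 read 10.89, 10.94, 11.12 and 11.08 on the KO arrays, against 11.92, 11.40 and 10.90 on the WT arrays, a difference of -0.40 that was 0.10 against WT 3 alone. Irf9, the DNA-binding partner in ISGF3, read 10.51, 10.77, 10.63 and 10.59 on the KO arrays, against 10.74, 10.61 and 10.63 on the WT arrays. Its difference was -0.03, with a 95% interval of -0.26 to 0.20, it was -0.003 against WT 3 alone, and its sign turned under median centring (0.02) and quantile normalization (0.02). WT 1 and WT 2 were thus above all KO arrays in Irf7 and Stat2 and inside the KO range in Irf9.

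All 3 IFIT genes, which bind viral RNA and block its translation, had every KO value below every WT value. Ifit1 read 7.28, 6.97, 6.94 and 7.14 on KO 1 to 4, against 8.71, 10.26 and 7.33 on WT 1 to 3, a difference of -1.68 ± 0.58 (SE; limma, adjusted p = 0.223) that was -0.24 against WT 3 alone. Ifit2 read 6.27, 7.03, 6.68 and 7.27 in KO, against 8.74, 10.04 and 7.61 in WT, with a difference of -1.98 that was -0.80 against WT 3 alone. The values of Ifit3 were 7.23, 7.57, 7.30 and 6.75 in KO, against 8.35, 9.54 and 7.96 in WT, and its difference was -1.40, or -0.75 against WT 3 alone. WT 2 was the highest array for each of them, and WT 3 the lowest WT array. Related genes exist for Ifit1 and Ifit3, and how far the probes separate them was not analysed here. Ifit3b, a near-identical copy of Ifit3, differed by -1.06, or -0.37 against WT 3 alone.

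The OAS family makes oligoadenylates that activate RNase L, and Oasl1 is a related protein without that activity. All 5 members had a lower mean in KO, with differences of -1.15 to -1.61, and in 3 of them (Oas1a, Oasl1 and Oasl2) no KO value reached a WT value. Oas1a read 7.88, 7.996, 8.31 and 8.07 on KO 1 to 4, against 9.92, 10.56 and 8.48 on WT 1 to 3, a difference of -1.59 ± 0.43 (SE; limma, adjusted p = 0.223) that was -0.41 against WT 3 alone. Oas2 read 7.27, 7.68, 7.61 and 7.42 in KO, against 9.17, 10.49 and 7.65 in WT; its difference of -1.61 was -0.16 against WT 3 alone. Oas3 and Oasl1 differed by -1.30 and -1.60, and by -0.02 and -0.36 against WT 3 alone. For Oasl2 the KO values were 7.32, 7.47, 7.31 and 7.32, against 8.21, 9.81 and 7.49 in WT, with a difference of -1.15, or -0.13 against WT 3 alone. KO 2 and WT 3 were nearly equal there, so the separation in Oasl2 is marginal. WT 3 lay inside the KO range in Oas2 and Oas3, and above it in the other 3. Without WT 3 all 5 were called lower in KO, with a largest adjusted p of 0.00862 (limma, Oasl2).

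The MX GTPases, which trap viral nucleocapsids, did not separate between the groups. Mx1 read 8.76, 8.51, 8.02 and 9.05 on KO 1 to 4, against 8.86, 8.86 and 8.88 on WT 1 to 3, so the KO arrays spread around nearly equal WT values. Mx2 read 8.88, 8.76, 8.35 and 8.96 in KO, against 9.002, 9.63 and 8.85 in WT. The differences were -0.28 and -0.42, with adjusted p of 0.476 and 0.308 (limma). They were -0.29 and -0.11 against WT 3 alone, and neither was called without WT 3. C57BL/6 mice carry a defective Mx1 allele, and the position of the probes within it was not analysed here.

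In the ISG15 system, where ISG15 is the tag, HERC6 the mouse ligase and USP18 the protease that removes it and also damps IFNAR, all 3 genes had every KO value below every WT value. Isg15 read 8.22, 8.36, 8.26 and 8.20 on KO 1 to 4, against 9.77, 10.52 and 8.67 on WT 1 to 3, a difference of -1.39 ± 0.37 (SE; limma, adjusted p = 0.223). Usp18 read 10.14, 10.40, 10.18 and 9.91 in KO, against 11.69, 11.67 and 10.44 in WT, a difference of -1.11. Herc6 read 10.21, 9.94, 9.98 and 10.32 in KO, against 11.30, 11.46 and 10.37 in WT, a difference of -0.93. Against WT 3 alone the differences were -0.41, -0.28 and -0.26. The KO arrays lay close together in Isg15, with an SD of 0.07 (n = 4), against 0.93 in WT (n = 3).

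**Figure D4:**
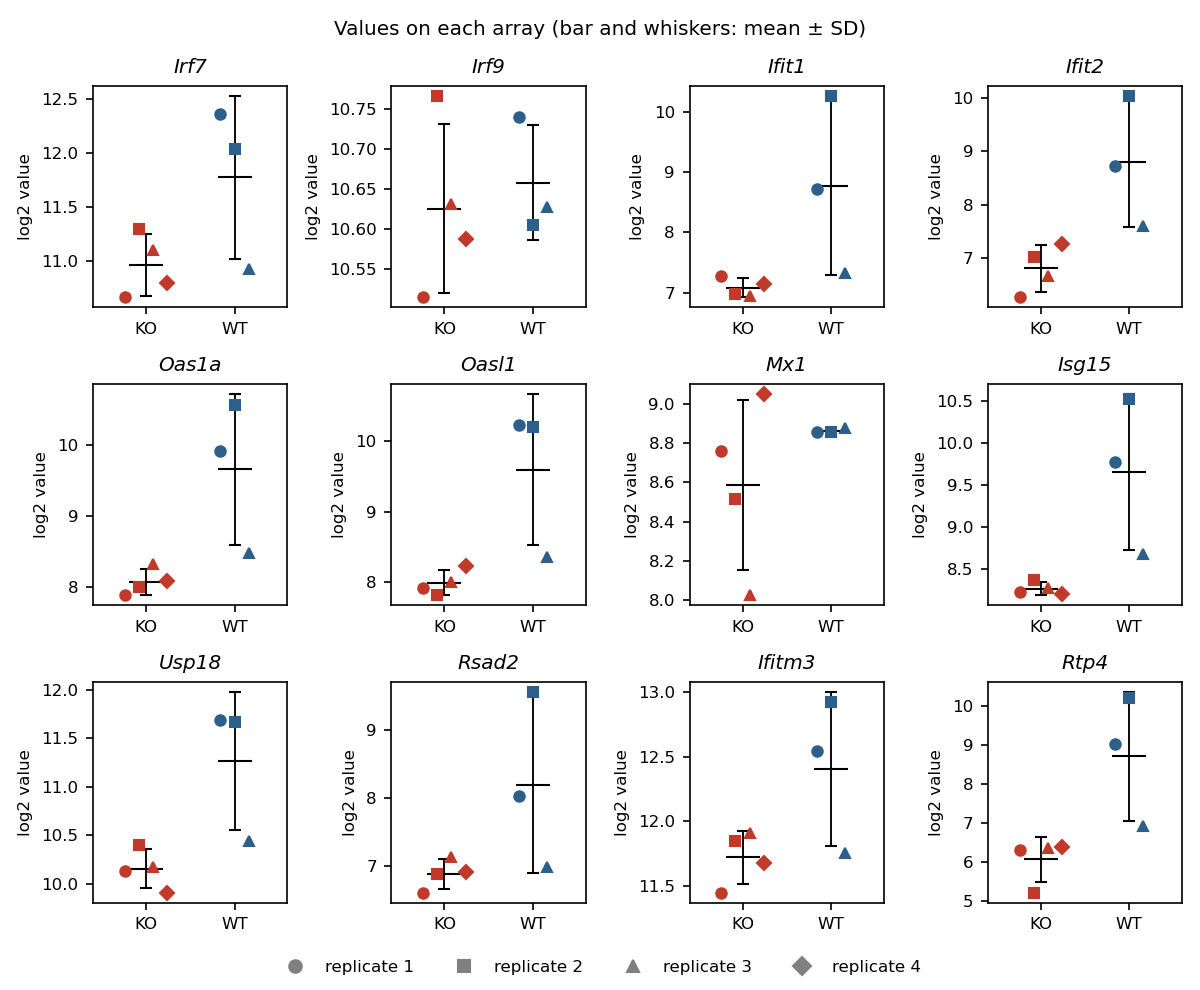
Log2 values of 12 effector genes on the 4 KO and 3 WT arrays (points, shape gives the replicate number), with the mean ± SD; each panel has its own axis, which does not start at 0. In Irf7, Ifitm3 and Rsad2 the WT 3 point lies inside the KO range, and in Ifit1, Isg15 and Rtp4 it lies above.

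Among enzymes that act on nucleotides or RNA, Rsad2 (viperin, which makes a chain-terminating nucleotide) and its neighbour Cmpk2 differed by -1.31 and -1.69, but by -0.10 and -0.42 against WT 3 alone. WT 3 lay inside the KO range in Rsad2. Cmpk2 read 7.80, 8.01, 7.97 and 7.27 on KO 1 to 4, against 10.03, 10.15 and 8.18 on WT 1 to 3 (limma, adjusted p = 0.223). Isg20, an exonuclease, differed by -1.03, or -0.37 against WT 3 alone. Samhd1, the dNTP hydrolase that restricts retroviruses, read 11.64, 11.79, 11.80 and 11.80 in KO, against 11.63, 11.56 and 11.84 in WT, and its difference of 0.08 had a 95% interval of -0.16 to 0.32 and was -0.08 against WT 3 alone. Eif2ak2, the kinase PKR that halts translation on double-stranded RNA, read 9.72, 9.43, 9.32 and 9.39 in KO, against 9.46, 9.86 and 9.69 in WT, a difference of -0.21, or -0.23 against WT 3 alone. Adar, the editor of double-stranded RNA, read 11.94, 11.97, 11.99 and 12.09 in KO, against 12.45, 12.24 and 11.88 in WT, a difference of -0.19 that turned to 0.11 against WT 3 alone. Samhd1, Eif2ak2 and Adar were not called in any of the fits with an array left out.

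The membrane restriction factors showed intermediate differences. Bst2 (tetherin), which holds budding virions at the cell surface, read 11.46, 11.73, 11.57 and 11.26 on KO 1 to 4, against 12.65, 12.64 and 11.72 on WT 1 to 3, a difference of -0.83 ± 0.24 (SE; limma, adjusted p = 0.223) that was -0.22 against WT 3 alone. The IFITM proteins block fusion of incoming virus, and their genes lie side by side in RefSeq. Ifitm2 read 12.18, 12.36, 12.30 and 12.21 in KO, against 12.41, 12.84 and 12.19 in WT, a difference of -0.22. Ifitm1 and Ifitm3 differed by -0.75 and -0.69, and against WT 3 alone Ifitm1, Ifitm2 and Ifitm3 were at 0.13, 0.07 and -0.035. In none of these 4 genes did the groups separate, since WT 3 lay inside or below the KO range in each.

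In the PARP group, which attaches ADP-ribose to proteins, Parp9 and its partner ligase Dtx3l are neighbours but differed in size. Parp9 read 7.49, 7.71, 7.59 and 7.56 on KO 1 to 4, against 8.31, 8.70 and 7.71 on WT 1 to 3, a difference of -0.65, or -0.12 against WT 3 alone. KO 2 and WT 3 were nearly equal in Parp9, so its separation of the groups is marginal. Dtx3l read 10.17, 10.48, 10.27 and 10.15 in KO, against 10.71, 10.35 and 10.29 in WT, a difference of -0.18, or -0.02 against WT 3 alone. Parp12 and Parp14 differed by -0.40 and -0.31, and by -0.02 and -0.09 against WT 3 alone. Without WT 3, Parp9 and Parp12 were called lower in KO (limma, adjusted p = 0.00152 and 0.0114) and the other 2 were not; the difference between Parp9 and Dtx3l was not tested.

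Both IFI27 family genes, which code for small membrane proteins and are neighbours in RefSeq, had every KO value below every WT value. Ifi27 read 7.96, 8.28, 8.61 and 8.15 on KO 1 to 4, against 11.17, 11.61 and 8.90 on WT 1 to 3, a difference of -2.31 ± 0.58 (SE; limma, adjusted p = 0.223). On the linear scale KO was lower by a factor of 4.97 with 3 WT arrays and of 1.57 with WT 3 alone. Ifi27l2a read 6.79, 6.77, 6.90 and 6.90 in KO, against 8.57, 9.09 and 7.28 in WT, a difference of -1.47. Against WT 3 alone they differed by -0.65 and -0.43, at unadjusted p of 0.0223 and 0.0134 (limma, adjusted p = 0.832 for each).

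The remaining measured members split. Rtp4, a receptor transporter protein that also dampens the interferon response, read 6.32, 5.22, 6.37 and 6.40 on KO 1 to 4, against 9.02, 10.20 and 6.94 on WT 1 to 3, and had the largest difference of all members, -2.64 ± 0.70 (SE; limma, adjusted p = 0.223), or -0.86 against WT 3 alone. Its KO values lay under the median of the negative control probe sets (6.49 to 6.88 on the KO arrays, against 6.19 to 6.71 on the WT arrays), so the size and rank of its difference are not exact. Of the other members, Ifit2, Ifit3, Rsad2 and Ifi27l2a each lay under that median on 1 KO array. Lgals3bp, a secreted glycoprotein, and Xaf1, a pro-apoptotic factor, differed by -0.88 and -0.48, but by -0.10 and -0.06 against WT 3 alone. Sp100, a nuclear body protein, read 12.13, 12.31, 12.28 and 12.17 in KO, against 12.29, 12.01 and 12.30 in WT, a difference of 0.03, or -0.07 against WT 3 alone. Tor3a differed by -0.05, Ifi35 by 0.14 and Trim30a, which restrains Toll-like receptor signalling, by 0.21. These 3 were, against WT 3 alone, at 0.02, 0.13 and -0.0017, and none of the 4 was called in any fit with an array left out.

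**Figure D5:**
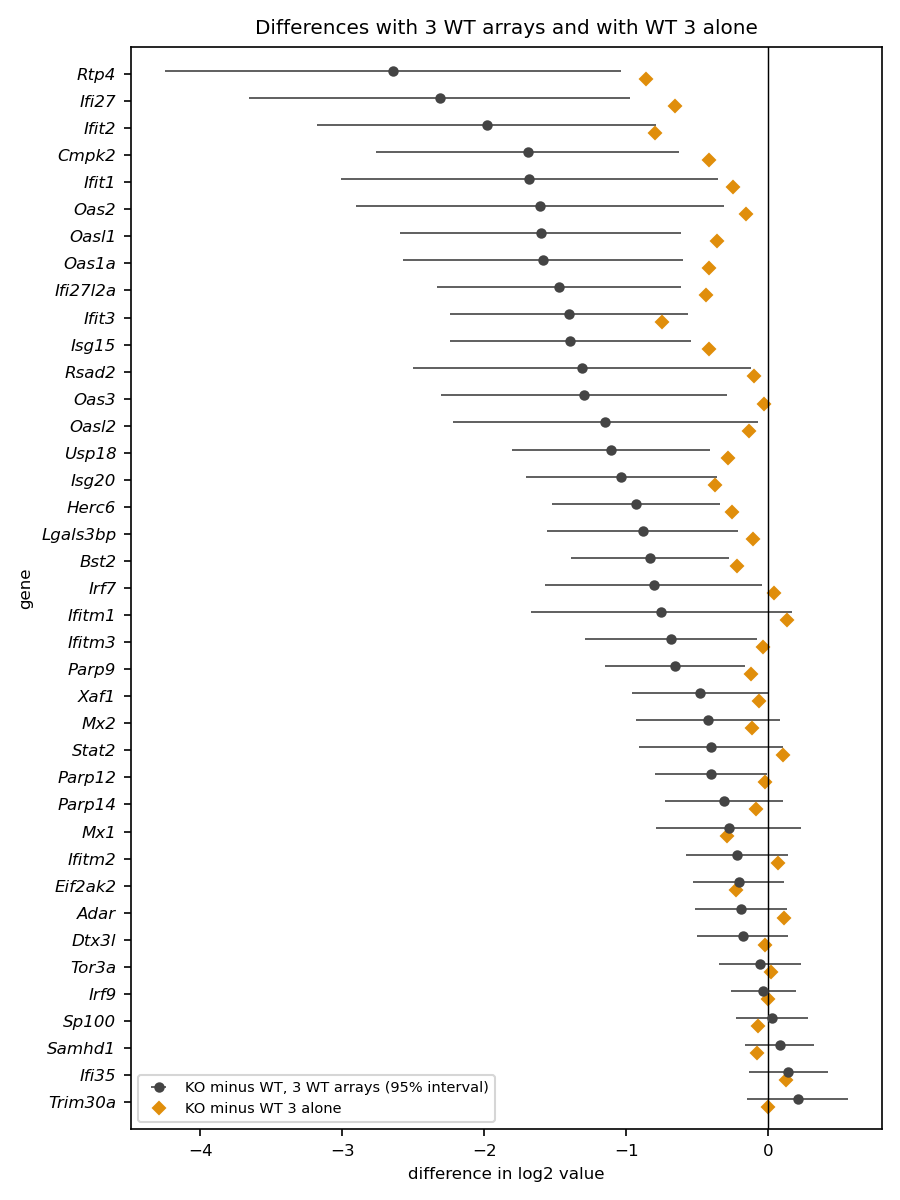
KO minus WT difference in log2 value of 39 effector genes with all 3 WT arrays (points, with the 95% interval from limma) and with WT 3 alone (diamonds), sorted by the first. The first measure runs from -2.64 to 0.21 and the second from -0.86 to 0.13; the lowest of each is Rtp4, near background on the KO arrays, so its size is not exact.

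WT 1 and WT 2 also differed from each other within the gene set. WT 2 was above WT 1 in 26 of 39 members, or 66.7%, against 45.9% of all genes, with a median difference (WT 2 minus WT 1) of 0.24, against -0.03 over all genes. The IFIT genes, Oas2, Oasl2, Rsad2, Rtp4 and Ifitm1 were higher on WT 2 by 1.18 to 1.59, while Usp18, Oasl1 and Bst2 were within 0.03 of WT 1. Stat2, Irf7, Dtx3l, Tor3a and Trim30a were lower on WT 2, with differences of -0.52 to -0.32. Monocyte and macrophage markers stood 1.76 above the KO mean on WT 2 and 0.26 above it on WT 1. The mean of the cDC2 markers was 1.49 above it on WT 2 and at -0.27 on WT 1. The cDC2 markers did not move together: 6 of 10 had a lower mean in KO, and Clec4a4, Esam, Clec12a and Cd4 lay below their KO means on WT 2. The part of these cell types was not tested. Within the KO group the members varied slightly more than genes in general, with a median SD of 0.17, against 0.14 over all genes. Their median WT SD was 0.59, against 0.20 over all genes.

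Members with a response element match in the promoter window had a median difference of -1.07 (12 genes, -1.68 to 0.21), against -0.75 for those without one (17 genes, -1.98 to 0.14). The medians were -0.16 with a match and -0.07 without against WT 3 alone. Every KO value lay below every WT value in 4 of the 12 and in 6 of the 17, where 5.92% of all genes did so. Both groups thus held large and small differences: Trim30a and Eif2ak2 had a match, and Ifit2, Cmpk2 and Oasl1 had none in the window. For 10 measured members no promoter window was listed.

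Beyond the 40 members, a list of 102 other interferon-induced genes had 85 measured. Of these 62 had a lower mean in KO (40.1% of all genes), with a median difference of -0.27, and 0 passed the adjusted threshold in either direction (0% of genes). In 23 every KO value lay below every WT value (5.92% of genes) and in 3 above (7.85%). Against WT 3 alone 57 of 85 were lower (44.7% of genes), and the median was -0.07. Without WT 3, 36 were called lower in KO and 10 higher (limma, adjusted p under 0.05), where 13.8% and 11.4% of all genes were. Ddx58 (the RNA sensor RIG-I) had the lowest difference, -3.17, followed by Mlkl (necroptosis effector) at -2.70, Ms4a6d at -2.15 and Gbp7 (a guanylate-binding protein) at -1.85. With WT 3 as the only WT array they were at -1.08, -0.88, -1.15 and -0.46. Ddx58 read 6.875 on KO 1 and 5.93 on KO 2, at or under the negative control medians of 6.876 and 6.49, so its size and rank are not exact. Ms4a6d read 5.32, 5.74, 5.52 and 6.56 on KO 1 to 4, against 6.36, 10.51 and 6.93 on WT 1 to 3; its KO values lay under the negative control median, so its size and rank are not exact, and WT 2 alone was far above the rest. The highest were Irf8, which is also a cDC1 marker, at 0.74, Trim12c at 0.70, Trim12a at 0.59 and Trim21 (an antibody receptor of the cytosol) at 0.57. Irf8 and Trim12c turned to -0.06 and -0.26 against WT 3 alone, while Trim12a and Trim21 were at 0.18 and 0.40. Irf8 read 12.45, 12.62, 12.70 and 12.48 on KO 1 to 4, against 12.16, 10.68 and 12.62 on WT 1 to 3, and WT 2 was also the lowest array in the mean of the cDC1 markers.

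Of 26 interferon, receptor and signalling genes, 13 were lower and 13 higher in KO, with a median difference of 0.01 and 0 passing the adjusted threshold (0% of genes). Against WT 3 alone 10 were lower and the median was 0.07. Ifna4, Ifna12 and Ifna13 read under the median of the negative control probe sets on every array. The counts and medians therefore include genes without a signal above background, and do not show that interferon expression was unchanged. Ifnb1, which codes for interferon beta, read 7.03, 7.41, 6.87 and 7.04 on KO 1 to 4, against 6.97, 8.60 and 6.77 on WT 1 to 3, so that WT 2 alone lay above the KO range; the difference was -0.36, and 0.31 against WT 3 alone. The receptor chains Ifnar1 and Ifnar2 differed by -0.16 and -0.0014, and Tyk2, a receptor kinase, by 0.40; against WT 3 alone these were -0.09, 0.07 and 0.07. Ifngr1, the interferon gamma receptor chain, read 12.27 to 12.40 on the KO arrays, against 10.70, 10.46 and 12.16 on WT 1 to 3, a difference of 1.23 (limma, adjusted p = 0.223) that was 0.18 against WT 3 alone.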

How the data were processed

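The authors deposited 1 table of log2 values for 28846 probe sets on 7 arrays. The submitters' processing notes name RMA, and Affymetrix Expression Console 1.1 as the software; the log2 scale was read from the values, 3.68 to 14.28. RMA in general corrects background, quantile-normalizes and summarises probes, which compresses small signals. Arrays measure brightness, so their number limits the precision. The platform annotation gave 1 symbol to 19572 probe sets; the probe set with the highest mean was kept per symbol, leaving 19505 genes. KO and WT were compared with limma 3.58.1 in R 4.3.3 (lmFit, eBayes, no covariate), Benjamini-Hochberg over all genes, threshold 0.05. A difference is KO minus WT on the log2 scale, and the factors given for Ifi27 are WT over KO on the linear scale. The members, lists and named-gene rule (every member of role groups of up to 3; in larger groups the largest and smallest difference and lowest standard error; 4 lowest and 4 highest of the other interferon genes) were chosen with earlier results of these data known. Values of Ifna4, Ifna12, Ifna13, Ifnb1, Ifnar1, Ifnar2, Tyk2, Ifngr1, Ifit3b and some members outside that rule were chosen after they were seen. So were the named cDC2, monocyte and macrophage, and mature dendritic cell markers. The fit was tested on simulated data. Replicate numbers are from titles, no label says that they pair arrays, and same-numbered arrays' deviations correlated at -0.04, 0.05 and -0.02. Alternatives were leaving out arrays, a replicate block, rescaling, a dim filter, other variance models, array weights, every probe set and a size threshold. Promoter sequences are RefSeq's (GRCm38.p6); no source used here names the build of the array files.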

Additional observations from a re-analysis of the deposited data

Results flagged for a closer look

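On 3 of 40 genes tested (39 members and Opa1), 1 KO array lay far from the other 3 by Dixon's criterion, which chance meets in about 1 of 20 groups. Rtp4 read 5.22 on KO 2, where the nearest KO value was 6.32; both are under the median of the negative control probe sets. Samhd1 read 11.64 on KO 1, with the nearest at 11.79, and Oasl2 read 7.47 on KO 2, with the nearest at 7.32. The gaps of Samhd1 and Oasl2 are small in log2 units.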

How the results depend on the processing

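Leaving out 1 array at a time gave 0 to 4931 called genes and 0 to 26 called effector genes. The median difference of the effector genes was -1.19 to -0.49, and in 15 to 29 of them every KO value lay below every WT value. The 26 and the 29 came without WT 3, where 13.8% of all genes were called lower in KO and 20.6% separated in that way. With all arrays 15 members and 5.92% of all genes separated. The other interferon-induced genes had a median of -0.46 to -0.22, and Opa1 differed by -1.5 to -0.996. Among these fits all calls came from the one without WT 3, which sets KO against WT 1 and WT 2. Array weights from limma, which gave WT 3 the lowest weight (0.24), called 4458 genes and 26 effector genes, 25 of them shared with the fit without WT 3. These weights reflect the distance of an array from its group, here a group with WT 1 and WT 2. The overlap is therefore not independent of the fit without WT 3, and the low weight does not mark WT 3 as the faulty array. Without WT 1 and WT 2 together the medians were -0.11 and -0.0706. The dim filter, which removes genes with low means, among them Rtp4, kept 30 effector genes, with a median of -0.45. In 8 of the 30 every KO value lay below every WT value. The share among all genes that the filter kept is not given here, so this count cannot be set against it. Median centring moved the median of all genes by 0.05 and gave 1814 genes lower and 2469 higher at an unadjusted p under 0.05, where the values as deposited gave 2068 lower and 1752 higher.

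The sign of 10 members turned in some setting, among them Irf7 (-0.81 with all arrays), Ifitm1 (-0.75) and Stat2 (-0.40). Against WT 3 alone Stat2 was at 0.10, Irf7 at 0.0412, Samhd1 at -0.0774, Adar at 0.11, Ifitm1 at 0.13, Ifitm2 at 0.0718, Trim30a at -0.0017, Sp100 at -0.0702 and Tor3a at 0.0198. Irf9 was at 0.0185 under median centring and 0.0205 under quantile normalization, and -0.0801 to 0.0084 with 1 array left out, where Sp100 ranged from -0.0656 to 0.0755 and Tor3a from -0.117 to 0.0473. The cause was not tested. With the replicate number as a replicate block, 0 genes were called, so the block changed no call. The median of the effector genes was -0.75, that of the other interferon-induced genes -0.31, and Opa1 differed by -1.48. KO 4 shares its number with no WT array, so it did not enter these estimates, which equal those without KO 4. A block leaves the values as they are, so the same 15 members separated (5.92% of all genes). Signals near the negative controls limit what can be said of Rtp4 and Ifit2 in KO.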
